A study of Mus musculus with 12 samples.

Results

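The knockdown of Nr5a2 was followed across all genes in 5 of the 12 RNA-seq libraries of the series, the 3 labelled Nr5a2 KD and the 2 labelled NT siRNA control, which were taken by these labels alone. Each library was made from a pool of 10 mouse embryos at the 8-cell stage, from crosses of B6129F1 females (3-5 weeks old, superovulated with PMSG and hCG) with B6CBAF1 males. Zygotes received 5 µM siRNA against Nr5a2 or 15 µM control siRNA, so the amount of siRNA differed between the groups, and H2B-EGFP was injected with both as a marker of injection. The study asks how NR5A2, alone and together with KLF5, shapes transcription in the early embryo. Its other 7 libraries carried siRNA against Klf5 at 10 µM (n = 3) or against both genes (dKD, n = 4, at concentrations not given in the sources used here). The siRNA was given once, at the zygote stage. The libraries measure mRNA and hold no protein values. Nothing in the labels says whether libraries of a group came from separate injection days, so p-values measure the spread between libraries, which may be technical.

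NR5A2, also called LRH-1, is an orphan nuclear receptor that binds DNA as a monomer at the motif TCAAGGNCA. In adult liver, intestine and gonads it drives genes of bile acid, lipoprotein and steroid metabolism, and in the early mouse embryo it takes part in the activation of the zygotic genome and is needed for development beyond the morula. At the 8-cell stage the embryo compacts, its outer cells polarise, and the first lineages, trophectoderm and inner cell mass, begin to part.

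Counts on genes came to 7000245 to 8873766 per library. Levels below are CPM, the gene's counts relative to the size of its library, with library sizes scaled by TMM factors over the 5 libraries. The share of counts on the mitochondrial genome was 13.2 and 12.9% in control, and 10.4, 12.5 and 6.18% in Nr5a2 KD, lowest in replicate 3. ERCC spike-in RNA took 0.398 and 0.459% against 0.285, 0.369 and 0.204%. The 7 markers of the 8-cell embryo (Pou5f1, Tfap2c, Tead4, Klf5, Cdh1, Nanog and Cdx2) summed to 659 to 679 CPM in control and 220.2 to 312 CPM in Nr5a2 KD. Most of that sum was Klf5, and Cdx2 was near the limit of counting with 12 counts in the 5 libraries. The 5 oocyte markers came to 59.99 to 71.2 against 54.2 to 89.1 CPM and the 5 markers of the 2-cell stage to 8.93 to 9.60 against 8.55 to 12.0 CPM. Of 9 markers of cumulus and granulosa cells, Cyp19a1, Inha and Ptx3 were at 0 in all 5 libraries and the 9 together reached 12.7 to 17.5 CPM in control and 11.3 to 13.9 CPM in Nr5a2 KD, mostly Amhr2.

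Nr5a2 lies at chr1:136842571-136960448 of GRCm38 and was at 221 and 209 CPM in control and 32.4, 39.0 and 24.9 CPM in Nr5a2 KD. The knockdown libraries thus kept some of the transcript. The mean of Nr5a2 KD was 14.9% of control (log2 fold change -2.74, SE 0.24, edgeR adjusted p = 0.000321), and all 3 libraries lay below both controls (exact permutation p = 0.1, two-sided, the lowest value possible with groups of 3 and 2). Klf5, which encodes the Krüppel-like factor that the study also targeted, fell with it, from 437 and 464 CPM in control to 148, 159 and 113 CPM in Nr5a2 KD (log2 fold change -1.68, SE 0.23, edgeR adjusted p = 0.0013).

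Around this loss, 586 of the 13262 genes tested (4.42%) were lower and 457 (3.45%) were higher in Nr5a2 KD than in control. A gene was called where edgeR's quasi-likelihood test gave a Benjamini-Hochberg adjusted p under 0.05 and the level changed 2-fold or more. Genes with too few counts in both groups were left out before the test. The median level of the lower genes was 27.2 CPM in control and 8.99 CPM in Nr5a2 KD, and together they took 63300.3 and 64153 CPM in the control libraries but 23661, 24021 and 20522 CPM in Nr5a2 KD. The higher genes had a median of 4.14 CPM in control, with 128 of them under 1 CPM, and of 16.7 CPM in Nr5a2 KD, and their sum went from 7457 and 7479 CPM to 21095, 19351 and 23366 CPM. A change of at least 4-fold was seen in 215 lower and 226 higher genes and one of at least 8-fold in 93 and 125. Averaged over both groups, the median was 18.5 CPM for lower, 10.4 CPM for higher and 9.68 CPM for all tested genes. With genes ranked by this average into 5 equal groups, the share called lower was 1.81% in the faintest group and 5.88% in the most abundant. The share called higher was 2.90% and 2.30% there, and highest in the middle group at 4.56%.

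**Figure D1:**
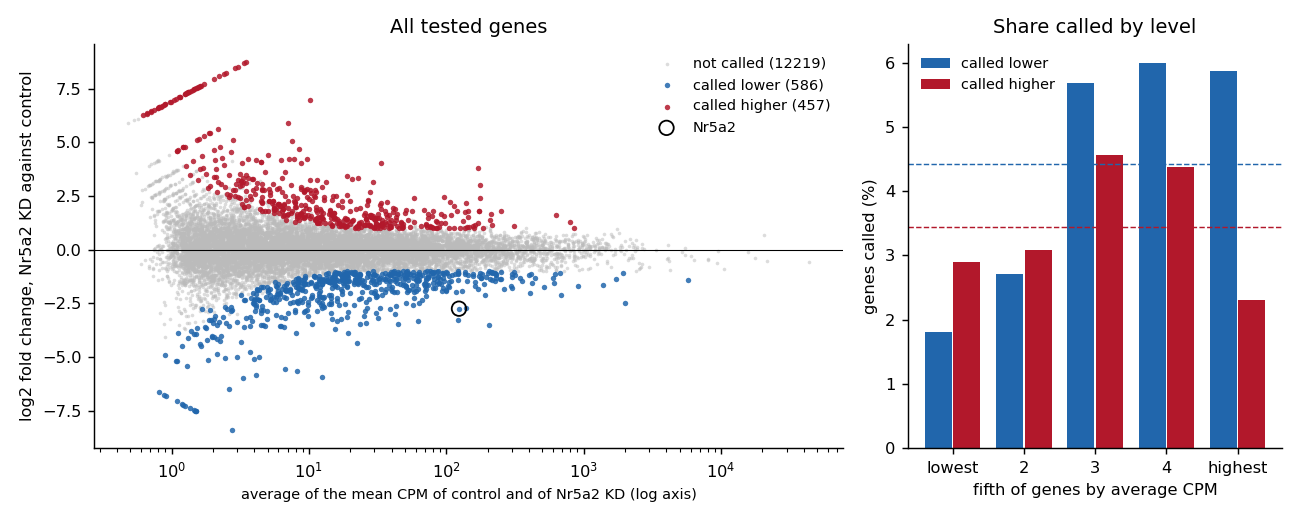
Left, log2 fold change of every tested gene in Nr5a2 KD against control (y axis) over the average of the mean CPM of control and of Nr5a2 KD (x axis, log scale), with genes called lower in blue, called higher in red and Nr5a2 circled. Right, the percentage of genes called lower or higher in each of 5 equal groups of genes by the same average, with dashed lines at the shares over all genes (4.42% and 3.45%). Calls in both directions reach from faint to abundant genes, with the smallest share called lower in the faintest group (1.81%).

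These counts depended on having both controls and on the scaling. Leaving out control replicate 1 gave 206 lower and 114 higher, and leaving out control replicate 2 gave 184 and 120. A fit that held the mitochondrial share as a covariate gave 373 and 282. Scaling to the ERCC counts turned the split to 90 lower and 761 higher, and the median over all genes, as a log2 fold change, moved from 0.04 to 0.82. The changes below are therefore relative to the bulk of genes. In each called gene the knockdown libraries lay all below or all above both controls (0 overlapped), which was also the case for 5627 of all 13262 genes, called or not.

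The dKD and Klf5 KD libraries share no sample with this comparison and differ from each other by the Nr5a2 siRNA, so they show the same genes again in other embryos. Of 12904 genes tested there, dKD had 698 below Klf5 KD (5.41%) and 694 above it (5.38%). Of the genes called lower in Nr5a2 KD, 558 were tested in both comparisons, and 367 of these (65.8%) were called lower in dKD against Klf5 KD too, which is 54.1% of the 678 genes called lower there. Of 429 genes called higher, 246 (57.3%) were called higher again, or 36.9% of 666. The same direction was taken by 553 of the 558 lower genes (99.1%), where 48.2% of all genes tested in both lay below 0, and by 420 of the 429 higher genes (97.9%, against 51.8%). Calls in opposite directions by edgeR numbered 0, and the test of the difference between the 2 effects passed its threshold for 0 of 14830 genes (715 at an unadjusted p under 0.05, smallest edgeR adjusted p = 0.480). The median log2 fold change of the lower genes was -1.63 in Nr5a2 KD and -1.45 in dKD against Klf5 KD, and that of the higher genes was 1.88 and 1.49.

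**Figure D2:**
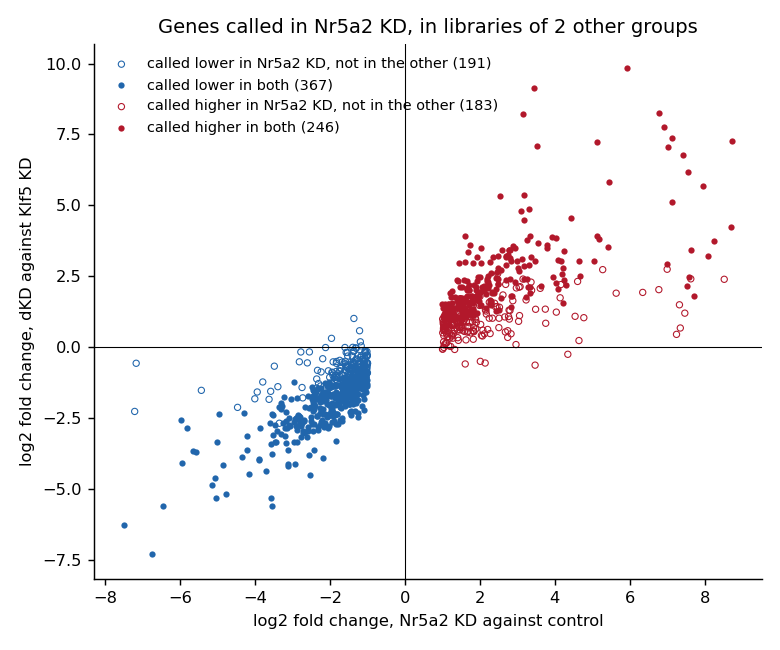
Log2 fold change of each gene called in Nr5a2 KD against control (x axis) and of the same gene in dKD against Klf5 KD (y axis), libraries that the first comparison does not contain. Filled points were called in the same direction in both (367 lower, 246 higher) and open points in the first only. Nearly all points lie at the lower left or upper right.

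Among called genes at 10 CPM or more in the higher group, Ube2u, a gene of the E2 family of ubiquitin-conjugating enzymes, fell the most. It was at 28.6 and 20.3 CPM in control and 0.697, 0.415 and 0 CPM in Nr5a2 KD (log2 fold change -5.95, SE 0.59, edgeR adjusted p = 0.00042). Mybpc2, the fast-muscle form of myosin-binding protein C, was at 13.1 and 18.9 CPM in control and 0, 0.138 and 0.777 CPM in Nr5a2 KD (log2 fold change -5.67, SE 0.71, edgeR adjusted p = 0.000883). The noncoding RNA Gm48038 was at 12.4 and 13.7 CPM in control and 0.116, 0.692 and 0 CPM in Nr5a2 KD (log2 fold change -5.57, SE 0.73, edgeR adjusted p = 0.00109). These 3 transcripts were close to the counting floor in every knockdown library. Tdgf1, which encodes the Nodal co-receptor Cripto, was at 32.0 and 53.2 CPM in control and 3.14, 1.11 and 1.94 CPM in Nr5a2 KD (log2 fold change -4.34, SE 0.41, edgeR adjusted p = 0.000321). Psme1, a subunit of the PA28 activator of the proteasome, was at 33.4 and 24.0 CPM in control and 2.79, 0.969 and 2.72 CPM in Nr5a2 KD (log2 fold change -3.71, SE 0.42, edgeR adjusted p = 0.000533). The other 5 of the 10 largest decreases, in 4933430I17Rik, AC166102.1, Rab29, Ccdc160 and Art3, had log2 fold changes of -3.89, -3.88, -3.60, -3.57 and -3.55. All 10 were also called lower in dKD against Klf5 KD, with log2 fold changes of -4.37 to -2.35. Rab29 lost the call without control replicate 1 (edgeR adjusted p = 0.0735). With 1 library left out the change moved by over 1.5-fold in Ube2u (set against 3 counts without Nr5a2 KD replicate 1), Mybpc2 (-5.05 without Nr5a2 KD replicate 1 and set against 1 count without Nr5a2 KD replicate 3), Gm48038 (set against 1 count without Nr5a2 KD replicate 2), Rab29 (-5.47 without Nr5a2 KD replicate 3) and Art3 (-4.48 without Nr5a2 KD replicate 3).

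By the CPM lost the order of the called genes was different. Crxos, a homeobox gene, lost the most among them, from 7666 and 8829 CPM in control to 4195, 2643 and 2622 CPM in Nr5a2 KD (log2 fold change -1.39, SE 0.25, edgeR adjusted p = 0.00629). Eif4e, the protein that binds the mRNA cap to start translation, was at 2828 and 2072 CPM in control and 929, 849 and 1105 CPM in Nr5a2 KD (log2 fold change -1.35, SE 0.23, edgeR adjusted p = 0.00431). Larp4, which binds poly(A) tails, was at 2268 and 1938 CPM in control and 665, 708 and 626 CPM in Nr5a2 KD (log2 fold change -1.66, SE 0.21, edgeR adjusted p = 0.000881). All 3 knockdown libraries of these 3 genes lay below both controls, as in every gene called lower. Wtap, a subunit of the complex that methylates adenosine in mRNA, was at 918 and 887 CPM in control and 286, 351 and 298 CPM in Nr5a2 KD (log2 fold change -1.53, SE 0.21, edgeR adjusted p = 0.00146). Mtf2, an accessory subunit of Polycomb repressive complex 2, was at 887 and 831 CPM in control and 234, 408 and 393 CPM in Nr5a2 KD (log2 fold change -1.32, SE 0.26, edgeR adjusted p = 0.00899). Tomm5, of the import pore in the outer mitochondrial membrane, fell by 1.08 on the log2 scale, the Nudix hydrolase gene Nudt4 by 1.67, and Mier3, of a corepressor family, by 2.09. The other 2 were Gm11517, a processed pseudogene whose reads could belong to near-identical copies, with a log2 fold change of -2.49, and AC132367.1, an antisense gene counted without strand so that its reads cannot be told apart from those of its partner, with one of -1.75. All 10 were called lower in dKD against Klf5 KD as well. Crxos, Mtf2 and Tomm5 lost the call with either control library left out, Eif4e without control replicate 1 (edgeR adjusted p = 0.0501 to 0.165). Tomm5 did so without Nr5a2 KD replicate 3 (a change under 2-fold).

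**Figure D3:**
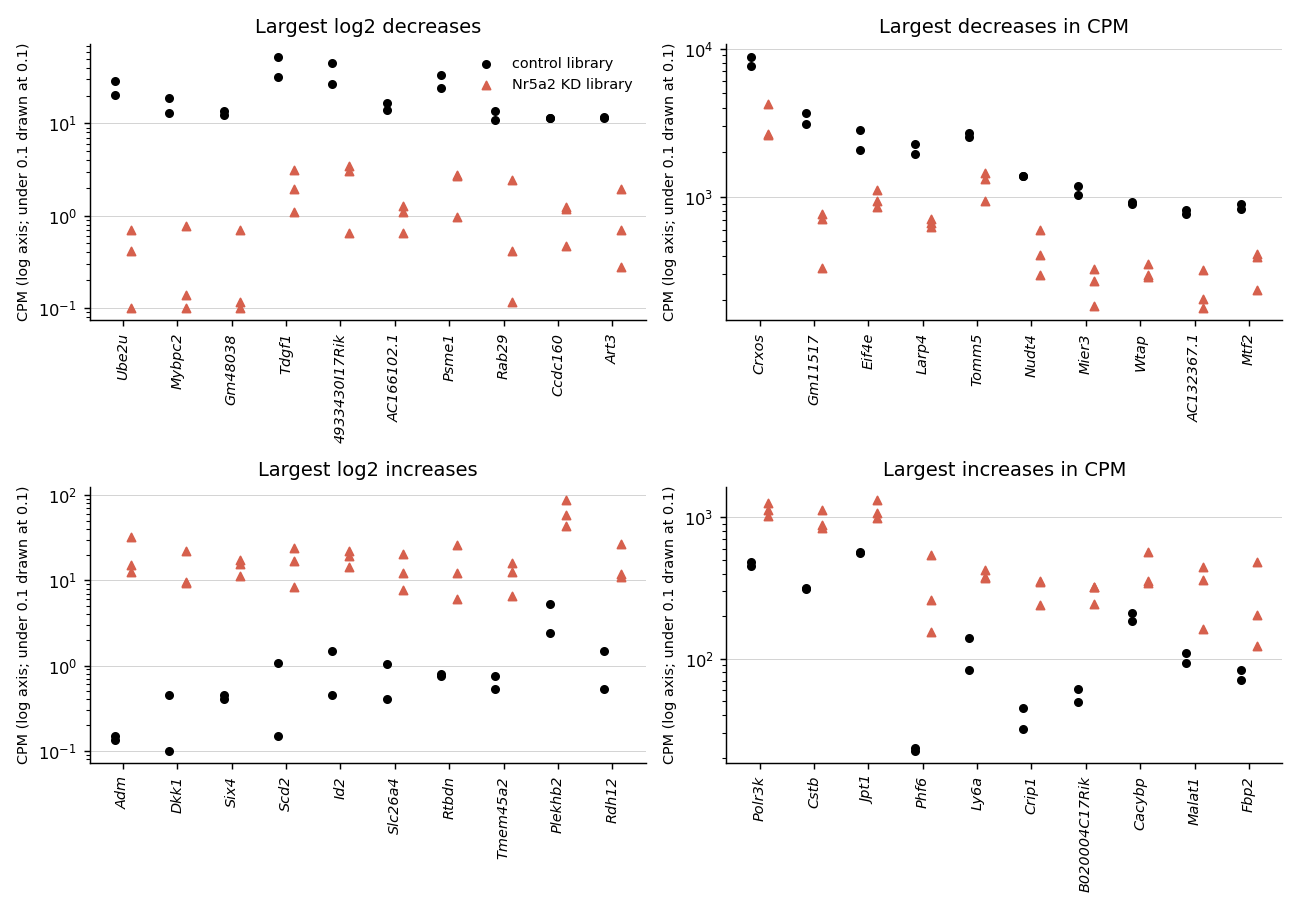
CPM of the 10 called genes with the largest log2 change and the 10 called genes with the largest change in CPM in each direction (y axis, log scale, values under 0.1 drawn at 0.1), with 1 black dot per control library (n = 2) and 1 red triangle per Nr5a2 KD library (n = 3). For the log2 panels a gene had to reach 10 CPM in the higher group. In all 40 genes the groups do not overlap, which was a condition for the log2 panels and held for every called gene.

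Of the 215 genes named in the text, 178 had a listed promoter (the 300 bases from 250 before to 50 after a start site, RefSeq table on GRCm38.p6), and 4 of these held the NR5A2 motif, the lower genes Eif4e, Khdc3 and Gpr161 and the higher gene Sdhd. The first pair, Khdc3 being a maternal-effect gene described further on, is shown as the lower genes with a match that the naming rule picked. In Eif4e (chr3:138525941-138526240, plus strand) TCAAGGCCA stood at 62 and 91 bases before the start, and in Khdc3 (chr9:73102148-73102447, plus strand) the motif stood on the opposite strand, read here as TGGCCTTGA, at 208 bases before the start. Capitals mark the matches.
Eif4e: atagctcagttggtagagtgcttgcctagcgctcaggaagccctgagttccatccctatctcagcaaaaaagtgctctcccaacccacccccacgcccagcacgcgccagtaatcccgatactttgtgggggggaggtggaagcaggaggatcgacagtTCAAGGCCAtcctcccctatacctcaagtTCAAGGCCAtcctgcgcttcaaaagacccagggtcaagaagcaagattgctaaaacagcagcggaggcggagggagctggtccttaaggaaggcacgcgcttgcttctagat
Khdc3: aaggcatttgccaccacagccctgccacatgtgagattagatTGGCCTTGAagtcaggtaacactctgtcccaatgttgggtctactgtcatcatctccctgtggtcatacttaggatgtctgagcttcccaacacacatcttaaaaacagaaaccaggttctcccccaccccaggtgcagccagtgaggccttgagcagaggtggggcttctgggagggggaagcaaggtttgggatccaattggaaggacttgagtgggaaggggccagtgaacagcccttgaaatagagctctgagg
Both strands were searched for TCAAGGNCA, and 532 of 32851 listed promoters (1.62%) held it. The table held a promoter for 72.0% of the genes called lower, 78.3% of those called higher and 68.7% of all tested genes, under the 80% needed, so a comparison of motif shares between these sets was void. A match describes these letters and is not evidence of binding.

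Among called genes at 10 CPM or more in the higher group, the largest increases were in genes faint in control. Adm, which encodes the peptide hormone adrenomedullin, was at 0.149 and 0.133 CPM in control and 12.4, 15.2 and 32.5 CPM in Nr5a2 KD (141-fold higher with a 95% counting interval of 38.9 to 1169.5, edgeR adjusted p = 0.000435). Dkk1, a secreted inhibitor of Wnt receptors, was at 0.447 and 0 CPM in control and 9.64, 9.41 and 22.4 CPM in Nr5a2 KD (65.2-fold higher with a 95% counting interval of 22.1 to 318, edgeR adjusted p = 0.00159). The homeobox gene Six4 was at 0.447 and 0.400 CPM in control and 11.1, 17.2 and 15.4 CPM in Nr5a2 KD (log2 fold change 5.05, SE 0.52, edgeR adjusted p = 0.000435). All knockdown libraries lay above both controls for these 3, as in every gene called higher. With 2, 3 and 6 counts in control, Adm, Dkk1 and Six4 passed the filter on low counts through the knockdown group alone. Scd2, a stearoyl-CoA desaturase, was at 0.149 and 1.07 CPM in control and 16.7, 8.30 and 24.1 CPM in Nr5a2 KD (log2 fold change 4.67, SE 0.69, edgeR adjusted p = 0.0021). Id2, an inhibitor of basic helix-loop-helix factors, was at 0.447 and 1.47 CPM in control and 19.2, 14.3 and 22.3 CPM in Nr5a2 KD (log2 fold change 4.23, SE 0.51, edgeR adjusted p = 0.000775). The anion exchanger gene Slc26a4, Rtbdn, Tmem45a2, Plekhb2 and the retinol dehydrogenase gene Rdh12 completed the 10, with log2 fold changes of 4.22, 4.22, 4.18, 4.02 and 4.02. Of the 10, 9 were called higher in dKD against Klf5 KD, where Adm missed the threshold (log2 fold change 2.75, edgeR adjusted p = 0.0509). With 1 library left out the change moved by over 1.5-fold in Dkk1 (set against 0 counts without control replicate 1 and set against 3 counts without control replicate 2), Scd2 (3.92 without control replicate 1 and set against 1 count without control replicate 2), Id2 (3.64 without control replicate 1 and set against 3 counts without control replicate 2), Slc26a4 (set against 3 counts without control replicate 1), Rtbdn (3.55 without Nr5a2 KD replicate 3), Plekhb2 (4.72 without control replicate 2) and Rdh12 (4.90 without control replicate 1).

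Measured in CPM gained, Polr3k, a small subunit of RNA polymerase III, rose the most of the called genes, from 479.8 and 449 CPM in control to 1258, 1125 and 1015 CPM in Nr5a2 KD (log2 fold change 1.29, SE 0.22, edgeR adjusted p = 0.00484). Cstb, the protease inhibitor cystatin B, was at 319 and 311 CPM in control and 1135, 836 and 881 CPM in Nr5a2 KD (log2 fold change 1.60, SE 0.24, edgeR adjusted p = 0.00207). Phf6, a PHD finger gene, was at 22.3 and 23.5 CPM in control and 260.0, 155 and 538 CPM in Nr5a2 KD (log2 fold change 3.79, SE 0.47, edgeR adjusted p = 0.000881). Crip1, a small LIM protein gene, was at 32.0 and 44.9 CPM in control and 349, 351 and 241 CPM in Nr5a2 KD (log2 fold change 3.03, SE 0.29, edgeR adjusted p = 0.000341). In each, the groups did not overlap, as in every called gene. Ly6a, the surface antigen Sca-1, had a log2 fold change of 1.81, the noncoding RNAs B020004C17Rik and Malat1 2.42 and 1.66, Jpt1 1.01, Cacybp 1.10 and the fructose bisphosphatase gene Fbp2 1.82. Phf6, Malat1 and Fbp2 were highest in replicate 3, at 538, 445 and 487 CPM, the library with the lowest mitochondrial share, and whether the 2 are linked was not tested. Jpt1, Cacybp, Malat1 and Fbp2 were not called in dKD against Klf5 KD (log2 fold changes 0.50, 0.88, 0.53 and 1.12). Polr3k, Cstb, Malat1, Jpt1, Cacybp and Fbp2 lost the call with either control library left out, Ly6a without control replicate 1 (edgeR adjusted p = 0.0563 to 0.27). Jpt1 and Cacybp did so without Nr5a2 KD replicate 3 (a change under 2-fold). A single library moved the change by over 1.5-fold in Phf6 (3.20 without Nr5a2 KD replicate 3) and Fbp2 (1.10 without Nr5a2 KD replicate 3).

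Gene lists by pathway were read against the shares over all genes (4.42% lower, 3.45% higher, median log2 fold change 0.04). Over all 13262 genes tested, 6980 log2 fold changes were positive and 6282 negative. From here on, a single number in brackets after a gene, or after several in their order, is its log2 fold change in Nr5a2 KD against control. A gene of few counts in one group could enter a list's tested genes through the other group alone, so shares in lists of faint genes rest in part on members admitted by their own change. In transcription factor families, 4 of 17 tested Klf and Sp factors were lower and 0 higher, with a list median of -0.54. All knockdown libraries lay below control in 9 of the 17, against 2832 of 13262 over all genes. In dKD against Klf5 KD 1 was lower and 1 higher of 16 tested, with a median of 0.12. Klf4, a pluripotency factor, was at 45.9 and 65.7 CPM in control and 20.1, 11.9 and 6.09 CPM in Nr5a2 KD (log2 fold change -2.13, SE 0.39, edgeR adjusted p = 0.00678). Klf13 was at 17.1 and 17.7 CPM in control and 4.53, 6.37 and 4.40 CPM in Nr5a2 KD (log2 fold change -1.77, SE 0.34, edgeR adjusted p = 0.0082). Sp3 was at 138 and 119 CPM in control and 44.1, 67.0 and 41.5 CPM in Nr5a2 KD (log2 fold change -1.34, SE 0.25, edgeR adjusted p = 0.00793). In dKD against Klf5 KD, Klf4 was called lower again (log2 fold change -2.37, edgeR adjusted p = 0.000365) while Klf13 and Sp3 were not called (log2 fold change -1.07, edgeR adjusted p = 0.17 and log2 fold change -0.55, edgeR adjusted p = 0.301). Of 24 nuclear receptors and corepressors, Nr5a2 and Nr4a3 were lower and Esrrb was higher. Esrrb, an orphan receptor of the pluripotency network, was at 20.996 and 17.9 CPM in control and 38.6, 52.3 and 31.9 CPM in Nr5a2 KD (log2 fold change 1.07, SE 0.28, edgeR adjusted p = 0.0361). Nr4a3 had 33 counts in control and 2 in Nr5a2 KD (27.3-fold lower with a 95% counting interval of 6.99 to 235, edgeR adjusted p = 0.0354). Of 4 tested Gata factors, Gata1 alone passed the test, at 40.7 and 34.9 CPM in control and 9.99, 13.8 and 12.6 CPM in Nr5a2 KD (log2 fold change -1.64, SE 0.27, edgeR adjusted p = 0.00368). Among 273 zinc finger genes named Zfp, 11 were lower (4.03%) and 5 higher (1.83%), against 4.42% and 3.45% over all genes. In dKD against Klf5 KD the counts were 7 lower and 27 higher of 263, with a median of 0.34. Of those called in Nr5a2 KD, Zfp758 fell the most (log2 fold change -3.39, SE 0.31, edgeR adjusted p = 0.000321) and Zfp623 rose the most (log2 fold change 2.70, SE 0.38, edgeR adjusted p = 0.0017). Klf13, Sp3 and Esrrb lost the call with either control library left out, Nr4a3 and Gata1 without control replicate 1 and Klf4 without control replicate 2 (edgeR adjusted p = 0.0518 to 0.289). Esrrb did so without Nr5a2 KD replicate 1 or 2, Nr4a3 without Nr5a2 KD replicate 1 or 3 (edgeR adjusted p = 0.0526 to 0.0859). Nr4a3 fell under the low-count filter without control replicate 2. The fold change moved by over 1.5-fold with 1 library left out in Nr4a3 (set against 0 counts without Nr5a2 KD replicate 2).

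In the lists of the first lineages, calls went both ways. Of 25 tested pluripotency and inner cell mass genes, Tdgf1, Klf4, Klf5 and Tdh (threonine dehydrogenase, an enzyme of pluripotent mouse cells, log2 fold change -2.03, SE 0.55, edgeR adjusted p = 0.0388) were lower, and Esrrb and Spp1 were higher. Spp1, the secreted phosphoprotein osteopontin, had 2 counts in control and 5.81, 0.415 and 10.2 CPM in Nr5a2 KD (39.8-fold higher with a 95% counting interval of 10.8 to 332, edgeR adjusted p = 0.0297). Of 16 trophectoderm genes 2 were lower and 3 higher. Hand1, a trophoblast transcription factor, was at 42.6 and 48.9 CPM in control and 5.11, 9.83 and 5.83 CPM in Nr5a2 KD (log2 fold change -2.73, SE 0.32, edgeR adjusted p = 0.000627), but was not called in dKD against Klf5 KD (log2 fold change -1.79, edgeR adjusted p = 0.0788). The gene of the TEAD factor Tead4 was lower too (log2 fold change -1.01, SE 0.27, edgeR adjusted p = 0.0393). Id2 and the keratin pair of simple epithelia, Krt8 and Krt18, were higher. Krt8 was at 2.83 and 2.80 CPM in control and 17.9, 8.58 and 12.7 CPM in Nr5a2 KD (log2 fold change 2.21, SE 0.44, edgeR adjusted p = 0.01). Krt18 was at 0.447 and 2.93 CPM in control and 11.03, 7.20 and 15.03 CPM in Nr5a2 KD (log2 fold change 2.68, SE 0.63, edgeR adjusted p = 0.0221). In pools of whole embryos, fewer cells of a type and less RNA per cell cannot be told apart. Of 10 primitive endoderm genes, Lamb1 and Srgn were higher (1.82 and 2.14 on the log2 scale) and 0 lower, with a list median of 1.39 that came down to 0.01 in dKD against Klf5 KD, where neither gene was called. Of 49 keratin genes in the files 4 passed the filter on low counts, and the remaining call was on Krt28, which was lower (log2 fold change -2.18, SE 0.37, edgeR adjusted p = 0.00431). Tdh, Esrrb, Spp1, Tead4, Krt8, Lamb1 and Srgn lost the call with either control library left out, Krt18 without control replicate 1 and Klf4 without control replicate 2 (edgeR adjusted p = 0.0666 to 0.289). Krt18 did so without Nr5a2 KD replicate 1, Tdh, Esrrb, Lamb1 and Srgn without Nr5a2 KD replicate 1 or 2, Tead4 without Nr5a2 KD replicate 1 or 3 (edgeR adjusted p = 0.0537 to 0.121, some with a change under 2-fold). Spp1 fell under the low-count filter without Nr5a2 KD replicate 1 or Nr5a2 KD replicate 3. Leaving out 1 library moved the change by over 1.5-fold in Id2 (3.64 without control replicate 1 and set against 3 counts without control replicate 2) and Krt18 (set against 3 counts without control replicate 2).

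Cell polarity and Hippo signalling read cell position in the compacting embryo. Of 24 tested genes of the Hippo list 3 were lower and 0 higher, with a median of -0.31, and in dKD against Klf5 KD 1 was lower and 1 higher, with a median of -0.16. Lats2, the kinase that phosphorylates YAP, was at 39.6 and 39.2 CPM in control and 8.59, 9.69 and 6.74 CPM in Nr5a2 KD (log2 fold change -2.24, SE 0.28, edgeR adjusted p = 0.000838), and was not called in dKD against Klf5 KD (log2 fold change -0.88, edgeR adjusted p = 0.134). Ajuba, a LIM protein that binds LATS kinases, was at 18.3 and 11.6 CPM in control and 3.25, 2.21 and 2.72 CPM in Nr5a2 KD (log2 fold change -2.44, SE 0.40, edgeR adjusted p = 0.00366). The third was Tead4. Of 37 genes of apical polarity and junctions, 2 were lower and 2 higher. Prkcz, an atypical protein kinase C, was at 57.8 and 65.3 CPM in control and 27.4, 28.4 and 15.9 CPM in Nr5a2 KD (log2 fold change -1.36, SE 0.28, edgeR adjusted p = 0.011). Of the 6 claudins tested, which seal tight junctions, Cldn4 was lower (log2 fold change -1.14, SE 0.32, edgeR adjusted p = 0.0454). Cldn6 and Cldn7 were higher. Cldn7 was at 28.7 and 31.6 CPM in control and 96.0, 91.2 and 137 CPM in Nr5a2 KD (log2 fold change 1.84, SE 0.27, edgeR adjusted p = 0.00189), and Cldn6 had a log2 fold change of 2.01. Neither Cldn6 nor Cldn7 was called in dKD against Klf5 KD (log2 fold change -0.50, edgeR adjusted p = 0.491 and log2 fold change 0.55, edgeR adjusted p = 0.423). Tead4, Prkcz, Cldn4 and Cldn6 lost the call with either control library left out, Ajuba without control replicate 1 (edgeR adjusted p = 0.0672 to 0.443). Cldn4 did so without Nr5a2 KD replicate 1, 2 or 3, Tead4 without Nr5a2 KD replicate 1 or 3 (edgeR adjusted p = 0.0524 to 0.128, some with a change under 2-fold).

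Fibroblast growth factor signalling runs through SOS and RAS to the kinase ERK, and its list of 29 tested genes had 3 lower and 3 higher. The list median was -0.04, with 16 genes negative and 13 positive. The 3 genes called lower act at the head of the pathway. The ligand gene Fgf1 was at 17.6 and 24.4 CPM in control and 4.76, 4.57 and 1.94 CPM in Nr5a2 KD (log2 fold change -2.48, SE 0.41, edgeR adjusted p = 0.00368). The exchange factor gene Sos1 was at 171 and 141 CPM in control and 48.3, 41.8 and 34.5 CPM in Nr5a2 KD (log2 fold change -1.91, SE 0.23, edgeR adjusted p = 0.000836). Hras had a log2 fold change of -1.01. The higher genes are known to be induced by ERK. Dusp6, an ERK phosphatase, was at 3.87 and 2.53 CPM in control and 33.1, 43.0 and 27.5 CPM in Nr5a2 KD (log2 fold change 3.43, SE 0.36, edgeR adjusted p = 0.000435). Spry2, a feedback inhibitor of RAS signalling, was at 14.9 and 18.1 CPM in control and 30.0, 51.3 and 29.4 CPM in Nr5a2 KD (log2 fold change 1.16, SE 0.31, edgeR adjusted p = 0.0402). Fos had 1 count in control and 77 in Nr5a2 KD (46.5-fold higher with a 95% counting interval of 8.10 to 1859, edgeR adjusted p = 0.0173). In dKD against Klf5 KD, Dusp6 was again called higher and Fgf1 and Sos1 lower, while Hras, Spry2 and Fos were not called. Of 19 genes of the p38 and JNK pathways 3 were lower and 1 higher. Map2k6, an upstream kinase of p38, fell from 2.98 and 3.07 CPM to 0 in every knockdown library (at least 23.8-fold lower). Here and below a group at 0 is set to 3 counts in all, a floor that covers counting error only, since reads carried no molecular identifiers. Atf2, a transcription factor at the end of both pathways, was at 113 and 108 CPM in control and 30.2, 38.1 and 26.6 CPM in Nr5a2 KD (log2 fold change -1.81, SE 0.23, edgeR adjusted p = 0.00106). Mapk9, the JNK2 gene, was lower (-1.52) and the phosphatase gene Dusp16 higher (1.47). Hras, Spry2, Fos, Map2k6, Mapk9 and Dusp16 lost the call with either control library left out (edgeR adjusted p = 0.0609 to 0.393). Spry2 and Dusp16 did so without Nr5a2 KD replicate 1 or 2, Hras and Mapk9 without Nr5a2 KD replicate 1 or 3 (edgeR adjusted p = 0.0503 to 0.128).

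In TGF-beta, Nodal and BMP signalling 4 of 27 tested genes were lower and 2 higher. The Nodal co-receptor gene Tdgf1, described above, was among the lower. The ligand gene Bmp7 fell from 1.79 and 1.73 CPM to 0 in all knockdown libraries (at least 13.8-fold lower). The receptor gene Bmpr1a was at 80.7 and 69.6 CPM in control and 33.7, 34.6 and 33.2 CPM in Nr5a2 KD (log2 fold change -1.15, SE 0.22, edgeR adjusted p = 0.00796). The SMAD corepressor gene Ski was at 19.5 and 26.1 CPM in control and 6.74, 9.96 and 6.48 CPM in Nr5a2 KD (log2 fold change -1.56, SE 0.32, edgeR adjusted p = 0.0123). These 4 calls were on a ligand, a receptor, a co-receptor and a corepressor. The list as a whole had a median of -0.05, with 14 of 27 genes negative and 13 positive. In dKD against Klf5 KD 3 of 27 were lower and 3 higher, with a median of 0.08. Bmpr1a was not called there (log2 fold change -0.81, edgeR adjusted p = 0.0697). The higher genes were Id2 and Gsc, the homeobox gene goosecoid, a Nodal target, which was at 3.87 and 3.73 CPM in control and 38.6, 40.7 and 33.4 CPM in Nr5a2 KD (log2 fold change 3.30, SE 0.31, edgeR adjusted p = 0.000321). In Wnt signalling 3 of 24 were higher and 0 lower, namely Dkk1, Wls and the receptor gene Fzd4 (log2 fold change 3.75, SE 0.82, edgeR adjusted p = 0.0157). Wls, which carries Wnt proteins out of the cell, went from 0 in both controls to 0.465, 4.43 and 4.66 CPM (at least 14.5-fold higher). With 3, 0 and 4 counts in control, Dkk1, Wls and Fzd4 passed the filter on low counts through the knockdown group alone. Of 10 Notch genes 0 were called by edgeR (1 at an unadjusted p under 0.05) and 0 by DESeq2. In the JAK-STAT and interferon list 2 of 21 were lower and 4 higher. Ifitm2, an interferon-induced membrane protein gene, was at 41.1 and 58.0 CPM in control and 214, 242 and 226 CPM in Nr5a2 KD (log2 fold change 2.20, SE 0.25, edgeR adjusted p = 0.000596). Ifitm1 was at 22.2 and 27.9 CPM in control and 92.3, 97.4 and 75.0 CPM in Nr5a2 KD (log2 fold change 1.82, SE 0.25, edgeR adjusted p = 0.00159). Ifitm3 was at 1.34 and 1.87 CPM in control and 14.4, 8.44 and 16.97 CPM in Nr5a2 KD (log2 fold change 3.03, SE 0.48, edgeR adjusted p = 0.00316). These neighbours are close in sequence, and reads that fit several of them were left out of the counts. Stat6 rose (log2 fold change 3.31, SE 0.58, edgeR adjusted p = 0.00531) and Tyk2 and Socs3 fell (-1.45 and -1.23). Bmpr1a, Wls, Fzd4 and Socs3 lost the call with either control library left out, Stat6 without control replicate 1 and Ski and Tyk2 without control replicate 2 (edgeR adjusted p = 0.0563 to 0.416). Fzd4 and Socs3 did so without Nr5a2 KD replicate 1, Tyk2 without Nr5a2 KD replicate 2 or 3 (edgeR adjusted p = 0.0525 to 0.0799). Bmp7 fell under the low-count filter without control replicate 1 or control replicate 2 and Wls without Nr5a2 KD replicate 2 or Nr5a2 KD replicate 3. The fold change moved by over 1.5-fold with 1 library left out (log2 value in brackets) in Dkk1 (set against 0 counts without control replicate 1 and set against 3 counts without control replicate 2), Id2 (3.64 without control replicate 1 and set against 3 counts without control replicate 2) and Stat6 (set against 3 counts without control replicate 2).

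The metabolic lists held calls in both directions, and some medians stood above that of all genes (0.04). The median was 0.50 in glycolysis and pyruvate entry (17 of 27 genes positive), 0.44 in fatty acid oxidation (16 of 21), 0.50 in glucose and amino acid transporters (14 of 20) and 0.12 in the tricarboxylic acid cycle (14 of 20). These medians were 0.30, 0.23, 0.39 and -0.27 in dKD against Klf5 KD. Over all genes, 6980 of 13262 log2 fold changes in Nr5a2 KD were positive. The summed level of the glycolysis list, in contrast to its median, went from 1923 and 1848 CPM in control to 1433, 1244 and 1552 CPM in Nr5a2 KD. Of 10 tested genes that NR5A receptors are known to control in adult tissues, Fdx1, the ferredoxin that passes electrons to steroid-making cytochromes, was at 81.3 and 68.7 CPM in control and 9.41, 11.1 and 8.16 CPM in Nr5a2 KD (log2 fold change -2.97, SE 0.25, edgeR adjusted p = 0.000321). Shbg, the sex hormone-binding globulin gene, was lower too (-1.34). Apoa1 and Apoe, lipoprotein genes, were higher. Apoe was at 5.96 and 3.47 CPM in control and 14.6, 18.4 and 46.8 CPM in Nr5a2 KD (log2 fold change 2.50, SE 0.52, edgeR adjusted p = 0.0126). Apoa1 was at 0.745 and 1.60 CPM in control and 10.6, 6.09 and 12.95 CPM in Nr5a2 KD (log2 fold change 3.04, SE 0.56, edgeR adjusted p = 0.0067). The other 19 genes of this list in the files did not pass the filter on low counts. In the 20 genes of the tricarboxylic acid cycle list, Idh1, the cytosolic isocitrate dehydrogenase, fell from 67.0 and 48.0 CPM in control to 8.59, 6.92 and 10.5 CPM in Nr5a2 KD (log2 fold change -2.73, SE 0.28, edgeR adjusted p = 0.000435). Fh1 and Sdhd rose (1.52 and 1.29). Of 27 genes of glycolysis and pyruvate entry, Mpc1, a subunit of the mitochondrial pyruvate carrier, was at 422 and 405 CPM in control and 137, 112 and 101 CPM in Nr5a2 KD (log2 fold change -1.83, SE 0.22, edgeR adjusted p = 0.000781). Ldha, which turns pyruvate into lactate, was at 5.06 and 2.27 CPM in control and 17.3, 11.9 and 23.3 CPM in Nr5a2 KD (log2 fold change 2.26, SE 0.45, edgeR adjusted p = 0.01). Hk2, a hexokinase, was at 12.7 and 15.1 CPM in control and 51.6, 39.0 and 35.9 CPM in Nr5a2 KD (log2 fold change 1.60, SE 0.28, edgeR adjusted p = 0.00516). Dlat, of the pyruvate dehydrogenase complex, had a log2 fold change of 1.43. The fall of Fdx1, Shbg, Idh1 and Mpc1 and the rise of Ldha, Hk2 and Apoe were called in dKD against Klf5 KD as well, while Apoa1, Fh1, Sdhd and Dlat were not called there (log2 fold changes 2.11, 0.69, 0.48 and 0.89). Shbg, Apoe, Fh1, Sdhd, Hk2 and Dlat lost the call with either control library left out, Apoa1 without control replicate 1 and Ldha without control replicate 2 (edgeR adjusted p = 0.0518 to 0.314). Fh1 and Dlat did so without Nr5a2 KD replicate 1, Shbg without Nr5a2 KD replicate 1, 2 or 3 (edgeR adjusted p = 0.0579 to 0.102). Leaving out 1 library moved the change by over 1.5-fold in Apoe (1.83 without Nr5a2 KD replicate 3), Apoa1 (3.70 without control replicate 2) and Ldha (2.94 without control replicate 1).

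Lipid genes moved in both directions. Of 25 genes of fatty acid synthesis 3 were lower and 4 higher, and the desaturases went opposite ways. Scd1 was at 29.3 and 23.1 CPM in control and 11.7, 6.64 and 8.42 CPM in Nr5a2 KD (log2 fold change -1.55, SE 0.32, edgeR adjusted p = 0.0123) while Scd2 rose, as given above. The fatty acid synthase gene Fasn was at 18.02 and 19.6 CPM in control and 45.4, 60.9 and 65.7 CPM in Nr5a2 KD (log2 fold change 1.61, SE 0.26, edgeR adjusted p = 0.00373). Dgat2, which makes triglyceride, was at 21.1 and 19.1 CPM in control and 39.5, 44.4 and 56.5 CPM in Nr5a2 KD (log2 fold change 1.22, SE 0.26, edgeR adjusted p = 0.0144). Elovl7, a fatty acid elongase gene, went from 0 in both controls to 2.09, 1.66 and 4.27 CPM (at least 12.7-fold higher). Agpat2 and Me1 were lower (-1.34 and -1.19). Of 21 genes of fatty acid oxidation, Decr1 and Eci1, auxiliary enzymes for unsaturated fatty acids, were lower (-3.58 and -1.12) and the core enzymes Echs1, Hadh and Hadhb higher (1.50, 1.26 and 1.09). In cholesterol synthesis and uptake 1 of 25 was lower and 1 higher, at consecutive steps of the pathway. Fdps was at 51.8 and 48.1 CPM in control and 101.5, 90.4 and 171 CPM in Nr5a2 KD (log2 fold change 1.28, SE 0.30, edgeR adjusted p = 0.0202). Fdft1 was at 129 and 96.0 CPM in control and 44.4, 26.3 and 71.5 CPM in Nr5a2 KD (log2 fold change -1.24, SE 0.34, edgeR adjusted p = 0.0421). In dKD against Klf5 KD, Scd1, Eci1 and Fdft1 were called lower and Scd2, Fasn and Dgat2 higher, and the others were not called. All but Scd2, Agpat2 and Decr1 lost the call with either control library left out, Agpat2 and Decr1 without control replicate 2 (edgeR adjusted p = 0.0507 to 0.454). Fdft1 did so without Nr5a2 KD replicate 1 or 2, Hadhb without Nr5a2 KD replicate 1 or 3, Me1 without Nr5a2 KD replicate 2 or 3, Fdps without Nr5a2 KD replicate 3 (edgeR adjusted p = 0.0675 to 0.109, some with a change under 2-fold). With 1 library left out the change moved by over 1.5-fold in Scd2 (3.92 without control replicate 1 and set against 1 count without control replicate 2).

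The retinol dehydrogenases were the symbol family with the largest share called higher, 4 of 9 tested, among 165 families of at least 8 tested genes. These enzymes oxidise retinol, the first step towards retinoic acid. Rdh12 was at 1.49 and 0.533 CPM in control and 10.9, 11.9 and 26.4 CPM in Nr5a2 KD (log2 fold change 4.02, SE 0.60, edgeR adjusted p = 0.00223). Rdh1 went from 0 in both controls to 3.37, 4.71 and 5.31 CPM (at least 21.1-fold higher). Rdh9 had 3 counts in control and 1.86, 3.32 and 4.27 CPM in Nr5a2 KD (14.7-fold higher with a 95% counting interval of 4.83 to 72.9, edgeR adjusted p = 0.0238). Rdh16f1 had 2 counts in control (16.9-fold higher with a 95% counting interval of 4.46 to 143, edgeR adjusted p = 0.0457). All 4 were called higher in dKD against Klf5 KD. With 0 to 3 counts in control, Rdh1, Rdh9 and Rdh16f1 passed the filter on low counts through the knockdown group alone, so the share of 4 in 9 rests on members admitted by their own rise. The 3 are close copies, and reads that fit several copies were left out of the counts. The wider list of aldehyde, alcohol and retinol dehydrogenases had 4 of 28 higher and 0 lower, with Aldh9a1 (log2 fold change 1.58, SE 0.42, edgeR adjusted p = 0.0379) beside Rdh1, Rdh9 and Rdh12. Of 11 cytochrome P450 genes Cyp4v3 alone was called, higher, with 5 counts in control and 148.5 in Nr5a2 KD. Among 28 ABC transporters 5 were higher and 1 lower. Abcb11, the bile salt export pump, rose from 0 in both controls to 2.21, 3.46 and 3.37 CPM (at least 14.1-fold higher). The others were Abca4 (2.15), Abcb10 (2.04), Abcc1 (2.001) and Abcc2, and Abca17 was the lower one (log2 fold change -2.27, SE 0.35, edgeR adjusted p = 0.00266). All but Rdh12, Rdh1, Cyp4v3 and Abca17 lost the call with either control library left out, Cyp4v3 and Abca17 without control replicate 2 (edgeR adjusted p = 0.0501 to 0.307). Cyp4v3 and Abca4 did so without Nr5a2 KD replicate 1, Abcc1 without Nr5a2 KD replicate 1 or 2, Rdh16f1, Aldh9a1 and Abcc2 without Nr5a2 KD replicate 1, 2 or 3, Abcb10 without Nr5a2 KD replicate 1 or 3 (edgeR adjusted p = 0.0532 to 0.134). A single library moved the change by over 1.5-fold in Rdh12 (4.90 without control replicate 1) and Cyp4v3 (set against 0 counts without control replicate 1).

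Genes of the matrix, of adhesion and of transport at the cell surface were read next. Of 76 collagens, laminins and integrins in the files 19 passed the filter, of which 5 were higher and 1 lower, with a median of 1.19. A low gene could pass the filter through its higher group alone, which can raise such a median. In dKD against Klf5 KD 5 of 16 were higher and 1 lower, with a median of 0.42. Itgb7, an integrin beta subunit, was at 6.11 and 5.73 CPM in control and 21.4, 30.4 and 34.7 CPM in Nr5a2 KD (log2 fold change 2.28, SE 0.33, edgeR adjusted p = 0.00199). Itgb4, another, was at 2.68 and 1.87 CPM in control and 9.76, 8.99 and 7.90 CPM in Nr5a2 KD (log2 fold change 1.96, SE 0.45, edgeR adjusted p = 0.0184). The integrin gene Itga3 and the laminin gene Lamb1 were higher too (1.58 and 1.82). Col9a2 had 68 counts in control and 3 in Nr5a2 KD (37.6-fold lower with a 95% counting interval of 12.3 to 187, edgeR adjusted p = 0.00597). Of 20 glucose and amino acid transporters, Slc3a2, the heavy chain shared by several amino acid exchangers, was at 17.3 and 7.07 CPM in control and 55.9, 38.2 and 68.7 CPM in Nr5a2 KD (log2 fold change 2.16, SE 0.39, edgeR adjusted p = 0.00625). Slc7a7, one of its partners, was also higher (2.96), while the taurine and creatine transporters Slc6a6 and Slc6a8 were lower (-1.40 and -1.02), so that the calls were 2 in each direction. Of 11 water channels, sodium pump subunits and other ion transporters, listed for the later cavity of the blastocyst, Slc4a7 was higher (log2 fold change 1.66, SE 0.37, edgeR adjusted p = 0.0171) and 0 lower. All but Itgb7, Col9a2 and Slc3a2 lost the call with either control library left out, Col9a2 and Slc3a2 without control replicate 2 (edgeR adjusted p = 0.0741 to 0.228). Itgb4 and Itga3 did so without Nr5a2 KD replicate 1, Lamb1 without Nr5a2 KD replicate 1 or 2, Slc6a8 without Nr5a2 KD replicate 2 or 3, Slc7a7 without Nr5a2 KD replicate 3 (edgeR adjusted p = 0.0525 to 0.0838, some with a change under 2-fold). The fold change moved by over 1.5-fold with 1 library left out (log2 value in brackets) in Col9a2 (set against 3 counts without Nr5a2 KD replicate 1 and set against 1 count without Nr5a2 KD replicate 2) and Slc3a2 (2.93 without control replicate 1).

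Of 26 tested apoptosis regulators 4 were lower and 0 higher in Nr5a2 KD, and 4 of 24 lower and 2 higher in dKD against Klf5 KD. Bad, a BH3-only protein, was at 41.1 and 54.4 CPM in control and 13.4, 11.1 and 11.3 CPM in Nr5a2 KD (log2 fold change -2.00, SE 0.26, edgeR adjusted p = 0.00108). Bok, a BAX relative, was at 34.5 and 34.5 CPM in control and 10.5, 16.9 and 9.46 CPM in Nr5a2 KD (log2 fold change -1.50, SE 0.30, edgeR adjusted p = 0.0108). Casp6, a caspase, was at 162 and 119.9 CPM in control and 51.8, 27.8 and 75.0 CPM in Nr5a2 KD (log2 fold change -1.45, SE 0.34, edgeR adjusted p = 0.0206). In all 3 the knockdown libraries lay below both controls, as in every gene called lower. All 3 were called lower again in dKD against Klf5 KD, with log2 fold changes of -2.38, -1.74 and -2.39. In 27 genes of the endoplasmic reticulum and integrated stress response, 2 were lower and 4 higher. Ern1, the sensor kinase IRE1, fell (log2 fold change -1.83, SE 0.40, edgeR adjusted p = 0.0151) with the co-chaperone gene Dnajb9 (-1.19). The chaperone gene Hspa5 (BiP) rose, from 47.4 and 48.1 CPM in control to 108, 96.5 and 109 CPM in Nr5a2 KD (log2 fold change 1.13, SE 0.22, edgeR adjusted p = 0.0099), as did Edem1 (1.84) and Ppp1r15a (2.16). Chac1, a glutathione-degrading enzyme induced by this response, had 2 counts in control and 95 in Nr5a2 KD (28.7-fold higher with a 95% counting interval of 7.72 to 240.1, edgeR adjusted p = 0.0136). Of 20 heat shock chaperones 3 were higher and 0 lower, with a median of 0.68, led by Hsph1 (log2 fold change 1.65, SE 0.27, edgeR adjusted p = 0.0039) and followed by the mitochondrial chaperonin pair Hspd1 and Hspe1 (1.16 and 1.06). All but Bad, Edem1, Ppp1r15a and Hsph1 lost the call with either control library left out, Edem1 and Ppp1r15a without control replicate 1 and Hsph1 without control replicate 2 (edgeR adjusted p = 0.0625 to 0.273). Casp6 and Hspe1 did so without Nr5a2 KD replicate 1, Ppp1r15a without Nr5a2 KD replicate 2, Hspd1 without Nr5a2 KD replicate 3 (edgeR adjusted p = 0.0595 to 0.0931, some with a change under 2-fold). Leaving out 1 library moved the change by over 1.5-fold in Ppp1r15a (3.61 without control replicate 2).

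Of 23 p53 targets 2 were lower and 2 higher. Perp, a desmosome protein, was at 13.4 and 12.7 CPM in control and 65.2, 47.5 and 69.3 CPM in Nr5a2 KD (log2 fold change 2.22, SE 0.28, edgeR adjusted p = 0.000844), and Plk2 rose too (2.78). Ei24 and Trp53inp1 were lower (-1.23 and -1.17). Of 33 genes of glutathione and peroxide detoxification, Mgst3, a microsomal glutathione transferase, was at 5.81 and 2.53 CPM in control and 47.5, 29.1 and 47.9 CPM in Nr5a2 KD (log2 fold change 3.32, SE 0.41, edgeR adjusted p = 0.000836). Gsto1, an omega-class transferase, was at 85.3 and 68.9 CPM in control and 289.5, 269.6 and 249 CPM in Nr5a2 KD (log2 fold change 1.80, SE 0.23, edgeR adjusted p = 0.00106), with 0 lower. In protein breakdown, Psme1 was the single call in 45 proteasome genes. Of 33 autophagy genes Atg4b was lower (log2 fold change -1.54, SE 0.35, edgeR adjusted p = 0.0192) and Sqstm1, the autophagy receptor p62, higher (log2 fold change 1.10, SE 0.30, edgeR adjusted p = 0.0388). Of lysosomal genes, 2 of 54 lysosomal hydrolases and proton pump subunits were lower, Ctsh (-1.28) and Glb1 (-1.36). Ei24, Trp53inp1, Atg4b, Sqstm1, Ctsh and Glb1 lost the call with either control library left out, Plk2 without control replicate 2 (edgeR adjusted p = 0.0562 to 0.271). Trp53inp1, Atg4b and Glb1 did so without Nr5a2 KD replicate 1, Sqstm1 without Nr5a2 KD replicate 1 or 3 (edgeR adjusted p = 0.0574 to 0.0861). With 1 library left out the change moved by over 1.5-fold in Plk2 (3.45 without control replicate 1) and Mgst3 (4.02 without control replicate 1).

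The machinery of translation and RNA processing held almost no calls. Of 84 cytosolic ribosomal proteins 0 were lower and 1 higher, and of 78 mitochondrial ones 0 and 1 (Mrpl16, 1.07). The cytosolic call was Rpl10l (1.50), a copy of Rpl10 whose reads may be shared with it. Of 54 initiation and elongation factors the calls were Eif4e and the Y-linked Eif2s3y, and of 64 ribosome biogenesis genes they were Nle1, lower (-1.60), and Mycn, higher. Mycn had 1 count in control and 73 in Nr5a2 KD (44.1-fold higher with a 95% counting interval of 7.66 to 1764, edgeR adjusted p = 0.0115). Of 34 aminoacyl-tRNA synthetases, 40 spliceosome genes and 13 chaperonin genes 0 were called by edgeR in either direction, with medians of 0.37, 0.22 and 0.56, while 9, 8 and 7 had an unadjusted p under 0.05 and DESeq2 called 2, 0 and 0. Of 79 nuclear subunits of oxidative phosphorylation 1 was lower, Ndufa8 of complex I, at 104 and 108 CPM in control and 36.3, 28.0 and 35.0 CPM in Nr5a2 KD (log2 fold change -1.68, SE 0.23, edgeR adjusted p = 0.00133), and 1 higher, Sdhd (1.29). All 13 mitochondrially encoded subunits had a negative log2 fold change (median -0.54), with mt-Co3 and mt-Atp6 called (-1.26 and -1.17), 2 genes at under 30 CPM. Their sum was 104524 to 109911 CPM in control and 44970.0 to 94840.3 CPM in Nr5a2 KD, lowest in replicate 3, and in dKD against Klf5 KD the median was 0.02 with 0 called. All but Eif4e, Mycn and Ndufa8 lost the call with either control library left out, Eif4e and Mycn without control replicate 1 (edgeR adjusted p = 0.0544 to 0.355). Nle1 did so without Nr5a2 KD replicate 1 or 2, mt-Co3 without Nr5a2 KD replicate 1, 2 or 3, Mrpl16 and mt-Atp6 without Nr5a2 KD replicate 1 or 3 (edgeR adjusted p = 0.0605 to 0.128, some with a change under 2-fold). A single library moved the change by over 1.5-fold in Mycn (set against 0 counts without control replicate 2).

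Among genes of the cell cycle and genome, Cdk1, the kinase that starts mitosis, was at 330.1 and 309.7 CPM in control and 127, 134 and 170.1 CPM in Nr5a2 KD (log2 fold change -1.16, SE 0.22, edgeR adjusted p = 0.00802). Cdc25b, a phosphatase that activates it, was at 10.7 and 6.93 CPM in control and 1.86, 0.138 and 0.130 CPM in Nr5a2 KD (log2 fold change -3.55, SE 0.81, edgeR adjusted p = 0.0186). They were the 2 lower genes of 48 in the cell cycle list, where Bub3 was higher (1.25). Of 48 DNA replication genes 3 were higher (Cdc7, Prim1 and Pcna, with log2 fold changes of 1.17, 1.31 and 1.03) and 0 lower, and these 3 were not called in dKD against Klf5 KD. Of 37 genes of homologous recombination and the Fanconi pathway, Fance was at 19.2 and 14.5 CPM in control and 2.67, 3.32 and 2.59 CPM in Nr5a2 KD (log2 fold change -2.55, SE 0.37, edgeR adjusted p = 0.00183). Rad51c and Rbbp8 were lower too (-1.98 and -1.09), Atr and Rad54l were higher (1.42 and 1.12), and all 5 were called in the same direction in dKD against Klf5 KD. Of 32 genes of the pentose phosphate pathway and nucleotide synthesis, Ctps2 was lower (log2 fold change -1.49, SE 0.24, edgeR adjusted p = 0.00328) and G6pdx and Adsl higher (2.21 and 1.23). Of 20 genes of one-carbon metabolism Tdh was lower and Amt higher (1.52). Of 50 nuclear pore genes and transport receptors, Tnpo1, an import receptor, was at 160.1 and 133 CPM in control and 46.1, 48.0 and 34.7 CPM in Nr5a2 KD (log2 fold change -1.77, SE 0.23, edgeR adjusted p = 0.00121). Nup62, Nup62cl and Nup133 were higher (1.47, 1.41 and 1.05). All but Cdc25b, Fance, Ctps2 and Tnpo1 lost the call with either control library left out, Cdc25b without control replicate 1 (edgeR adjusted p = 0.0735 to 0.353). Rbbp8 did so without Nr5a2 KD replicate 1, Tdh without Nr5a2 KD replicate 1 or 2, Bub3, Prim1, Pcna, Rad54l, Adsl and Nup133 without Nr5a2 KD replicate 1 or 3, Rad51c, Atr and G6pdx without Nr5a2 KD replicate 2 (edgeR adjusted p = 0.0535 to 0.102, some with a change under 2-fold). The fold change moved by over 1.5-fold with 1 library left out in Cdc25b (set against 2 counts without Nr5a2 KD replicate 1).

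Among chromatin genes, Jarid2, which helps recruit Polycomb repressive complex 2, was at 114 and 107 CPM in control and 24.3, 41.7 and 41.3 CPM in Nr5a2 KD (log2 fold change -1.63, SE 0.26, edgeR adjusted p = 0.00357). It and the acetyltransferase gene Kat6b (-1.08) were the lower genes in the list of 51 Polycomb, acetyltransferase and remodeler genes, where 0 were higher. Of 24 DNA methylation genes 2 were higher and 0 lower. One of them was Apobec2, which had 1 count in control and 56 in Nr5a2 KD (33.8-fold higher with a 95% counting interval of 5.82 to 1358, edgeR adjusted p = 0.027). Of 11 replication-dependent histone genes that passed the filter, of 67 in the files, 0 were called by edgeR (1 at an unadjusted p under 0.05) and 0 by DESeq2, but libraries made from polyadenylated RNA hold few of these transcripts. Of 23 imprinted genes 2 were lower and 2 higher. Igf2r, the maternally expressed receptor that clears IGF2, was at 113 and 118 CPM in control and 30.0, 33.9 and 14.5 CPM in Nr5a2 KD (log2 fold change -2.14, SE 0.31, edgeR adjusted p = 0.00199), and Usp29 was lower too (-1.66). Sfmbt2 was at 3.13 and 2.93 CPM in control and 23.7, 14.1 and 21.1 CPM in Nr5a2 KD (log2 fold change 2.69, SE 0.38, edgeR adjusted p = 0.00177). Rasgrf1 went from 0 in both controls to 1.86, 3.04 and 1.94 CPM (at least 10.7-fold higher). All 4 were called in the same direction in dKD against Klf5 KD. Kat6b, Apobec2 and Rasgrf1 lost the call with either control library left out, Usp29 without control replicate 2 (edgeR adjusted p = 0.0892 to 0.285). Kat6b did so without Nr5a2 KD replicate 1 or 2 (edgeR adjusted p = 0.0751 to 0.094).

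Xist, the RNA that silences one X chromosome in female cells, was at 197 and 219 CPM in control and 90.7, 74.6 and 61.3 CPM in Nr5a2 KD (log2 fold change -1.46, SE 0.23, edgeR adjusted p = 0.00324). Its antisense partner Tsix was at 140.4 and 169.8 CPM in control and 69.1, 61.0 and 32.0 CPM in Nr5a2 KD (log2 fold change -1.52, SE 0.30, edgeR adjusted p = 0.00923). The counting ignored strand, so the reads of the pair cannot be told apart. These were the calls among 12 regulators of X inactivation. Embryos were not separated by sex in the labels, and the 9 Y-linked genes of the list summed to 36.7 to 47.4 CPM in control and 65.3 to 92.7 CPM in Nr5a2 KD, with Sry and Rbmy at 0. Of the 6 that were tested 1 was called, Eif2s3y, at 15.3 and 12.5 CPM in control and 49.4, 32.8 and 44.4 CPM in Nr5a2 KD (log2 fold change 1.60, SE 0.28, edgeR adjusted p = 0.00584), and the other 5 did not pass. Eif2s3y has an X-linked copy close to it in sequence. The part of the sex ratio in the Xist result was not tested. Eif2s3y lost the call with either control library left out, Xist and Tsix without control replicate 2 (edgeR adjusted p = 0.0518 to 0.0977).

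Of 33 tested oocyte and maternal genes 2 were lower, Zar1l (-1.75) and E330034G19Rik (-1.83), and 0 higher. The list median was -0.53 with 20 of 33 genes negative, against 6282 of 13262 over all genes. The sum of the list went the other way, from 15223 to 17466 CPM in control to 22333 to 29613 CPM in Nr5a2 KD. Most of that sum was Dppa3, also called Stella, a maternal factor that guards methylation, at 16874 and 14352 CPM in control and 29086, 21601 and 25811 CPM in Nr5a2 KD, which was not called (log2 fold change 0.71, SE 0.23, edgeR adjusted p = 0.0759). Of 19 genes of the 2-cell stage Gm5662 alone was called, higher (1.54). Of 7 genes of the subcortical maternal complex, Khdc3 was lower, at 89.5 and 105 CPM in control and 23.6, 13.8 and 12.2 CPM in Nr5a2 KD (log2 fold change -2.55, SE 0.29, edgeR adjusted p = 0.000596). It was lower again in dKD against Klf5 KD (log2 fold change -3.80, edgeR adjusted p = 5.28e-05). Of the 7 Obox homeobox genes tested 0 were called by edgeR (1 at an unadjusted p under 0.05) and 0 by DESeq2. Of 10 Nlrp genes Nlrp6 rose from 0 in both controls to 5.57, 8.44 and 7.00 CPM (at least 32.8-fold higher). Of 21 cumulus and granulosa genes 4 passed the filter, and 0 were called by edgeR (1 at an unadjusted p under 0.05) and 0 by DESeq2. Zar1l, E330034G19Rik and Gm5662 lost the call with either control library left out (edgeR adjusted p = 0.112 to 0.31). Zar1l did so without Nr5a2 KD replicate 1 or 2, E330034G19Rik without Nr5a2 KD replicate 1, 2 or 3, Gm5662 without Nr5a2 KD replicate 2 or 3 (edgeR adjusted p = 0.0511 to 0.0932).

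**Figure D4:**
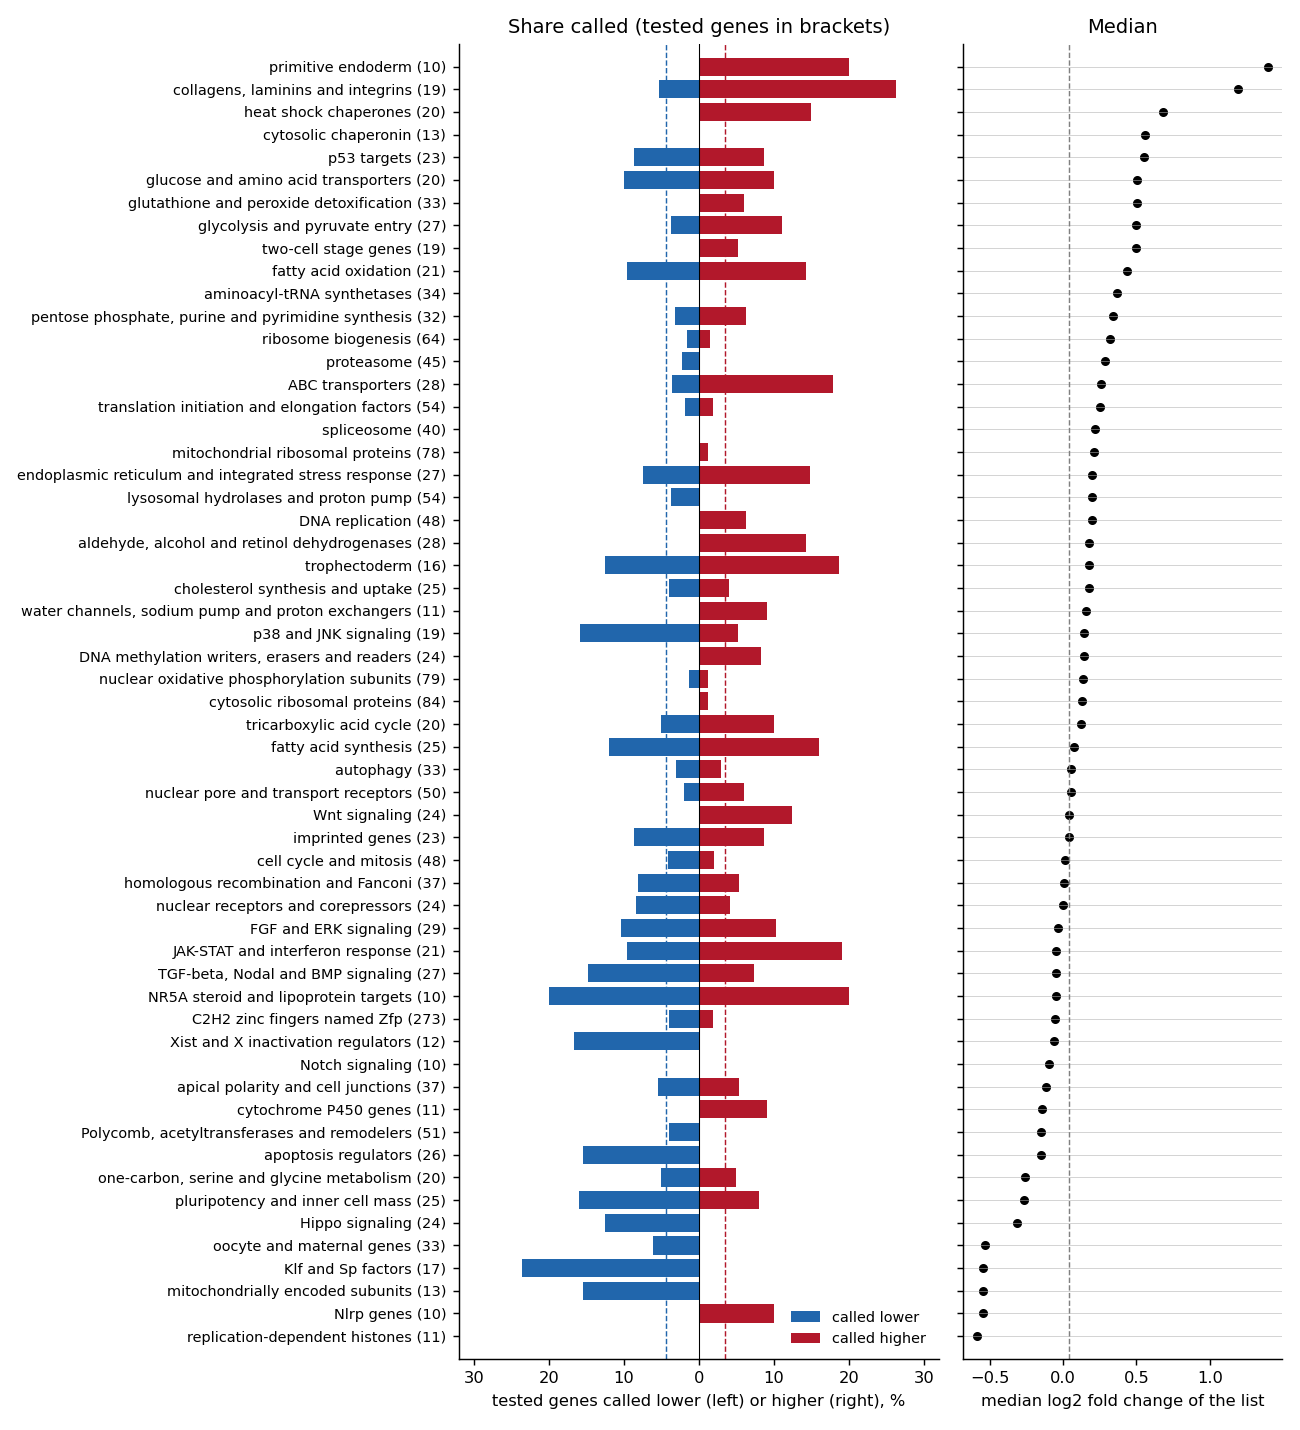
For each gene list with at least 10 tested genes (number in brackets), the percentage called lower (blue, to the left) and higher (red, to the right) in Nr5a2 KD, with dashed lines at the shares over all genes (4.42% and 3.45%), and at right the median log2 fold change of the list, with the median of all genes dashed (0.04). Several lists hold calls on the lower side alone, among them Klf and Sp factors, apoptosis regulators and Hippo signalling, and ribosomal, spliceosome and synthetase lists hold almost none.

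Across the genome, calls were spread over all chromosomes, from 3.21% (chromosome 3) to 6.48% (chromosome 14) lower and from 2.23% (chromosome 13) to 4.59% (chromosome 19) higher among the autosomes. Protein-coding genes were called more often (4.74% lower, 3.83% higher of 10895) than long noncoding RNAs (3.85% and 1.79% of 1170) and pseudogenes (1.67% and 1.80% of 777), as shares without a test. Neighbouring genes were compared as shares as well. Of tested genes next to a lower gene, without overlap and within 50 kb, 10.1% were lower too, against 4.53% of all genes in such pairs, and next to a higher gene 8.95% were higher, against 3.52%. Within 50 kb, 38 pairs were lower together, 26 higher together and 15 opposite. Chosen after their values were seen, such pairs included the keratins Krt8 (chr15:101996698-102004482) and Krt18 (chr15:102028180-102032027), the retinol dehydrogenases Rdh1 (chr10:127759721-127768297) and Rdh9 (chr10:127776386-127792697), the Argonaute genes Ago1 and Ago4, and the olfactory receptor genes Olfr836 (chr9:19120382-19125938) and Olfr837 (chr9:19136317-19140641), on GRCm38. Olfr836 was at 7.30 and 7.20 CPM in control and 0.697, 0 and 0 CPM in Nr5a2 KD (log2 fold change -4.78, SE 0.92, edgeR adjusted p = 0.0082) and Olfr837 was lower with it (-3.63). Members of such clusters can be similar in sequence, and their counts are then less certain. Krt8, Rdh9, Ago4 and Olfr837 lost the call with either control library left out, Krt18 without control replicate 1 and Ago1 without control replicate 2 (edgeR adjusted p = 0.0568 to 0.406). Krt18 did so without Nr5a2 KD replicate 1, Ago4 without Nr5a2 KD replicate 1 or 2, Olfr837 without Nr5a2 KD replicate 1 or 3 (edgeR adjusted p = 0.0537 to 0.109). Leaving out 1 library moved the change by over 1.5-fold in Krt18 (set against 3 counts without control replicate 2), Olfr836 (set against 0 counts without Nr5a2 KD replicate 1) and Olfr837 (set against 1 count without Nr5a2 KD replicate 2).

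Symbol families other than the retinol dehydrogenases showed smaller shares. Of 17 tested Kdm histone demethylases 3 were lower (Kdm7a, Kdm4c and Kdm2b) and 0 higher, as were 3 of 17 Zdhhc palmitoyltransferases (Zdhhc17, Zdhhc20 and Zdhhc7), and of 14 olfactory receptor genes 3 were lower and 1 higher. Olfr1459 was the higher one, at 44.2 and 104 CPM in control and 203, 285 and 149 CPM in Nr5a2 KD (log2 fold change 1.52, SE 0.37, edgeR adjusted p = 0.0252). Of 12 Dusp phosphatases Dusp26 was lower (-2.46) and Dusp6 and Dusp16 higher. Of 17 Gpr receptors 3 were lower and 1 higher. Gpr183 went from 1.79 and 1.47 CPM to 0 in all knockdown libraries (at least 12.4-fold lower). Gpr137b, a lysosomal membrane protein gene, was at 496 and 441 CPM in control and 121, 135 and 148 CPM in Nr5a2 KD (log2 fold change -1.80, SE 0.21, edgeR adjusted p = 0.000702). Gpr161 was the other lower one, and Gpr1 went from 0 in both controls to 3.02, 1.66 and 3.24 CPM (at least 12.7-fold higher). Within other families single members parted, Tspan4 and Prr11 being lower (-1.35 and -1.12) and Tspan1 and Prr23a1 higher (2.41 and 3.17), and the highest values of these latter genes were in replicate 3, at 181 and 96.9 CPM. No call was made in 64 of the 165 families. Kdm2b, Zdhhc17, Zdhhc7, Dusp16, Gpr161, Gpr1, Tspan4, Prr11 and Tspan1 lost the call with either control library left out, Kdm4c and Olfr1459 without control replicate 1 and Zdhhc20, Dusp26 and Prr23a1 without control replicate 2 (edgeR adjusted p = 0.0521 to 0.266). Kdm2b and Prr11 did so without Nr5a2 KD replicate 1, Olfr1459 and Dusp16 without Nr5a2 KD replicate 1 or 2, Gpr161 without Nr5a2 KD replicate 2 (edgeR adjusted p = 0.0508 to 0.0791, some with a change under 2-fold). Gpr183 fell under the low-count filter without control replicate 1 or control replicate 2. With 1 library left out the change moved by over 1.5-fold in Olfr1459 (2.26 without control replicate 2), Tspan1 (1.64 without Nr5a2 KD replicate 3) and Prr23a1 (4.30 without control replicate 1 and 2.41 without Nr5a2 KD replicate 3).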

How the data were processed

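RNA-seq libraries were prepared from embryo pools with SMART-seq v4 and Nextera XT and sequenced as read pairs. The deposited values are expected counts per gene: the authors trimmed reads with Trim Galore (0.6.2), mapped them with STAR to GRCm38 (the build in the submitters' processing notes) with H2B-EGFP and ERCC sequences added, and counted with featureCounts (2.0.1), splitting a read between overlapping genes, without regard to strand and without reads that map to several places. Counts were rounded to whole numbers here. Of 55401 genes in the files, 55141 were named from GENCODE M21 and 260 kept their identifier. Per-sample columns left unused numbered 0. A gene of low count passed edgeR's filterByExpr (minimum count 10, minimum total 15) where it was high enough in either group.

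Groups were taken from the labels. Counts were scaled by TMM and tested with edgeR's quasi-likelihood test (edgeR 4.0.16, limma 3.58.1, R 4.3.3), with Benjamini-Hochberg adjustment over all genes tested, fitted on the 5 libraries of the comparison, on the 7 of dKD and Klf5 KD, and on all 12 for the difference between the effects. Other work used Python 3.11.15, scipy 1.17.1 and matplotlib 3.10.9. The fit was tested on simulated data. Replicates of a group differed by more than sampling noise in every pair, least between the controls (chi-square per degree of freedom 8.33) and most between Nr5a2 KD replicate 3 and the others (48.3 and 52.1, against 15.4 between replicates 1 and 2). Genes were named by rule: among called genes, the 10 largest log2 changes in each direction at 10 CPM or more in the higher group without overlap, the 10 largest changes in CPM, and, in each gene list, up to 4 called genes in each direction by size of change, the most abundant uncalled gene being described only for the oocyte list. In the symbol families with the highest shares called, up to 3 called members were taken. Further calls that complete a list or family, and the neighbour pairs, were named after their values were seen. A few called genes are counted in their lists but not reported here by name. The gene lists and these rules were chosen with earlier results of these data known.

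Alternatives were DESeq2 (1.42.0) and its size factors, total and ERCC counts as library sizes, no filter, a mean of 50 or more normalized counts, all 12 libraries in 1 fit, the replicate number as a block, the mitochondrial share as a covariate, unrounded counts, no mitochondrially encoded genes, no minimum fold change, and each library left out. Library totals of 7000245 to 8873766 counts set the precision of low genes, where intervals and floors cover counting error only.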

Additional observations from a re-analysis of the deposited data

How the results depend on the processing

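With 586 genes lower and 457 higher as reported, the counts changed most with the library scaling and the number of controls. Library sizes from ERCC counts gave 90 lower and 761 higher, since the median of all genes then stood at 0.82 on the log2 scale. With the mitochondrial share as a covariate 373 were lower and 282 higher, with no filter on low counts 751 and 707, and with total counts as library sizes 453 and 504 (median of all genes 0.15). With 1 library left out in turn the counts ran from 184 to 585 lower and from 114 to 420 higher. With 1 control left, that library was assumed to vary like the Nr5a2 KD libraries. DESeq2 called 631 and 594, edgeR with DESeq2 size factors 600 and 464, the filter at a mean of 50 counts 441 and 336, all 12 libraries in 1 fit 529 and 344, unrounded counts 592 and 459, no mitochondrially encoded genes 592 and 465, and no minimum fold change 705 and 493.

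The replicate block gave 508 lower and 362 higher. The groups share 2 replicate numbers, which the labels do not tie to a day or litter. Deviations from the group means correlated at -0.0321 for number 1 and 0.0660 for number 2. With 2 controls, their deviations mirror each other, so these values cannot tell whether libraries of the same number share a day or litter.

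The change of Nr5a2 itself ranged from -2.90 to -2.04 on the log2 scale over all alternatives and passed the threshold in each. Of the other 213 called genes that are named, 0 changed direction under any alternative. As calls they had a change of 2-fold or more and no overlap between groups. A change of direction was thus unlikely from the outset, and the 0 says little about how firm they are. The number losing the call was 3 with DESeq2, 1 at a mean of 50 counts (165 of the 213 tested), 1 with its size factors, 23 with total counts, 83 with ERCC counts, 41 with all 12 libraries, 44 with the block, 89 with the covariate, and 128 and 132 without control replicate 1 and 2. List medians moved by more than the spread between knockdown libraries in 63 of the 64 lists with ERCC scaling, 26 with the covariate, 20 at a mean of 50 counts, 14 with total counts, 11 with the block, 3 with all 12 libraries and 8 to 19 with 1 library left out. The shares called again in dKD against Klf5 KD were 63.95 to 67.55% (lower) and 56.7 to 58.0% (higher) with DESeq2, its size factors and the mean of 50 counts in both comparisons. With settings changed on the Nr5a2 KD side alone, chosen after seeing the data, they were 73.3% and 53.8% with total counts, 87.8% and 46.2% with ERCC counts, 63.5% and 63.5% with the covariate, and 60.3 to 87.25% and 51.6 to 75.6% with 1 library left out. No share was computed for the other settings. The causes were not tested.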
